A study of Mus musculus with 3 samples.

Results

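Dendritic cells that carried a record of past Siglech expression were compared according to whether they also expressed a reporter of OX40L. The 2 populations were BFP+RFP+ and BFP-RFP+ cells, sorted from 1 pool of mice and read in 1 capture together with their RFP- counterparts. A cell was kept when 1 hashtag antibody held at least 80% of its hashtag UMIs (unique molecular identifiers, each counting 1 captured molecule), and when it passed 3 filters: 500 or more genes, 1000 or more UMIs from mRNA, and no more than 10% of UMIs from mitochondrial genes. This left 841 BFP+RFP+ and 982 BFP-RFP+ cells, or 1823 of 5019 kept cells among 6079 barcodes. The rest were RFP-, 2184 of them BFP+ and 1012 BFP-.

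All cells came from mice of the genotype SiglechiCreTg/0 ROSA26LoxP-STOP-LoxP-RFP Tnfsf4KI/+. Their skin was treated with MC903, a vitamin D analogue, on days 0, 2 and 4, and cells of the ear-draining lymph nodes were sorted on day 5, so no untreated cells enter any comparison. The gate took B220-, MHC class II high, CD11c low to intermediate, XCR1- and CD326- cells, which the labels call migratory dendritic cells that are neither Langerhans cells nor type 1 conventional dendritic cells. Within that gate the 4 populations were sorted by the 2 reporters, and every cell was also stained with barcoded antibodies to 4 surface proteins. RFP is switched on for good by a Cre recombinase under Siglech control and so marks past, not present, expression in the cell or its precursor. BFP reports Tnfsf4 from 1 modified allele. The number of mice pooled is not given in the sources used here.

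OX40L, encoded by Tnfsf4, is a costimulatory ligand that dendritic cells show to OX40 on activated T cells, and it is known for its part in type 2 helper responses. MC903 on the skin raises the epithelial cytokine TSLP, which acts on dendritic cells that then travel to the lymph node. Siglech is a surface receptor typical of plasmacytoid dendritic cells and their precursors, so a Siglech history is used to trace cells that passed through such a state. Type 2 conventional dendritic cells are usually recognised by CD11b and CD172a, and a skin subset of them by the lectin CD301b.

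The populations are known only through the hashtag barcodes, and the surface proteins only through the antibody barcodes, each a synthetic stretch of 15 bases joined to an antibody. The barcodes that separate the 2 RFP+ populations, and those that carry the protein values below, are given 5′ to 3′ from the submitters' deposited notes on the tags, with the whole barcode in capitals because all of it identifies the antibody.
Hashtag 1, BFP+RFP+: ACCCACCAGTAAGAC
Hashtag 2, BFP-RFP+: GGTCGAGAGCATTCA
CD301b: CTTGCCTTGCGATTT
CD172a: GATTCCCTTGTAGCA
CD11b: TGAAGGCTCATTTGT
CD8a: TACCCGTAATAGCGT
Hashtags 1 and 2 differ at 11 of 15 positions.

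Depth was close between the populations, with 14133804 mRNA UMIs in BFP+RFP+ and 15746616 in BFP-RFP+ cells and medians of 15183 and 14330 UMIs per cell. More BFP-RFP+ than BFP+RFP+ barcodes failed the cell filters, 8.22% (95% Clopper-Pearson interval 6.65 to 10.03) against 4.21% (2.98 to 5.76). Each population is 1 sample, so no test between populations was possible and no p-value is given. Levels are UMIs per 1000000 mRNA UMIs of the population (CPM), and differences are log2 ratios of BFP+RFP+ over BFP-RFP+. Intervals are exact 95% intervals of the counting error (for a difference of 2 ratios, 2 exact intervals combined) and leave out the spread between cells, mice and sorts. A higher level can mean more cells that express a gene or more RNA in each, and these cannot be told apart in the sums.

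The sorted reporters followed their labels. Tnfsf4 stood at 305.5 CPM (296.5 to 314.8) in BFP+RFP+ and 53.0 (49.4 to 56.7) in BFP-RFP+ cells, a log2 ratio of 2.53 (2.42 to 2.64), and BFP mRNA at 41.5 and 7.18 CPM gave the same ratio, 2.53. These values check the sort and are not findings. The red reporter mRNA was close in both, at 23.5 (21.0 to 26.2) and 21.0 (18.8 to 23.4) CPM. Siglech mRNA itself was almost absent, with 1 UMI in BFP+RFP+ cells and 25 UMIs in BFP-RFP+ cells, 12 of those 25 from a single cell. Of the defining markers of migratory dendritic cells, Ccr7, which directs migration to the lymph node, was at 1409 and 1312 CPM and Fscn1, an actin bundling protein, at 2162 and 2291. Both are labelled as the same cell type and carried these markers at close levels. The cDC1 receptor Xcr1 had 1 and 2 UMIs, and so did the Langerhans cell lectin Cd207, although the 7 Langerhans cell markers summed to 49.0 and 105 CPM, mostly from Ltc4s and Mfge8. B cell markers, of a type the B220- gate was meant to leave out, summed to 199 and 136 CPM.

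Among RFP+ cells, BFP+ cells had less of the genes and surface proteins of CD301b- and CD11b-expressing type 2 dendritic cells, of the apolipoprotein L genes Apol7c and Apol10b, of the tetraspanin Cd9 and of inducible heat shock genes. They had more of genes of the MHC class II pathway, of the receptor Plxna4, and of the muscle-type and non-muscle myosin genes Myl7 and Myh10. Of 9463 genes with at least 100 UMIs over both populations, 45 (0.476%) were at least 2-fold higher in BFP+RFP+ cells and 209 (2.21%) at least 2-fold lower. Tnfsf4, BFP and the reporter sequence SV40PolyA (1.22) are counted among the 45 here and below, and they check the sort. The ratio was above 0 for 3223 genes (34.1%) and below 0 for 6240 (65.9%), with a median of -0.09. This median moved to 0.01 with the scaling factors of edgeR (TMM) and of DESeq2, with which 65 and 66 genes were 2-fold higher and 165 and 164 lower. Lists are therefore read below against the median of all genes, and ratios within about 0.1 of 0 have no fixed direction.

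The surface protein tags showed the difference most directly. The CD301b tag averaged 50.6 UMIs per cell in BFP+RFP+ and 107 in BFP-RFP+ cells, a log2 ratio of -1.08. The medians were nearer to each other, 27 against 32, and the 90th percentiles were 57 and 186.8, so the gap lay in the cells with the most tag. The CD172a tag averaged 96.1 and 160.5 UMIs per cell, with medians of 64 and 99 and a ratio of means of -0.74. CD11b averaged 90.4 and 171 UMIs, with medians of 25 and 39 and a ratio of -0.92. Both were lower in the median cell as well as in the mean. CD8a went the other way, at 199 and 138 UMIs per cell on average and 121 and 63 in the median, with a ratio of 0.53. For every tag the ranges from the 10th to the 90th percentile overlapped between the populations.

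**Figure D1:**
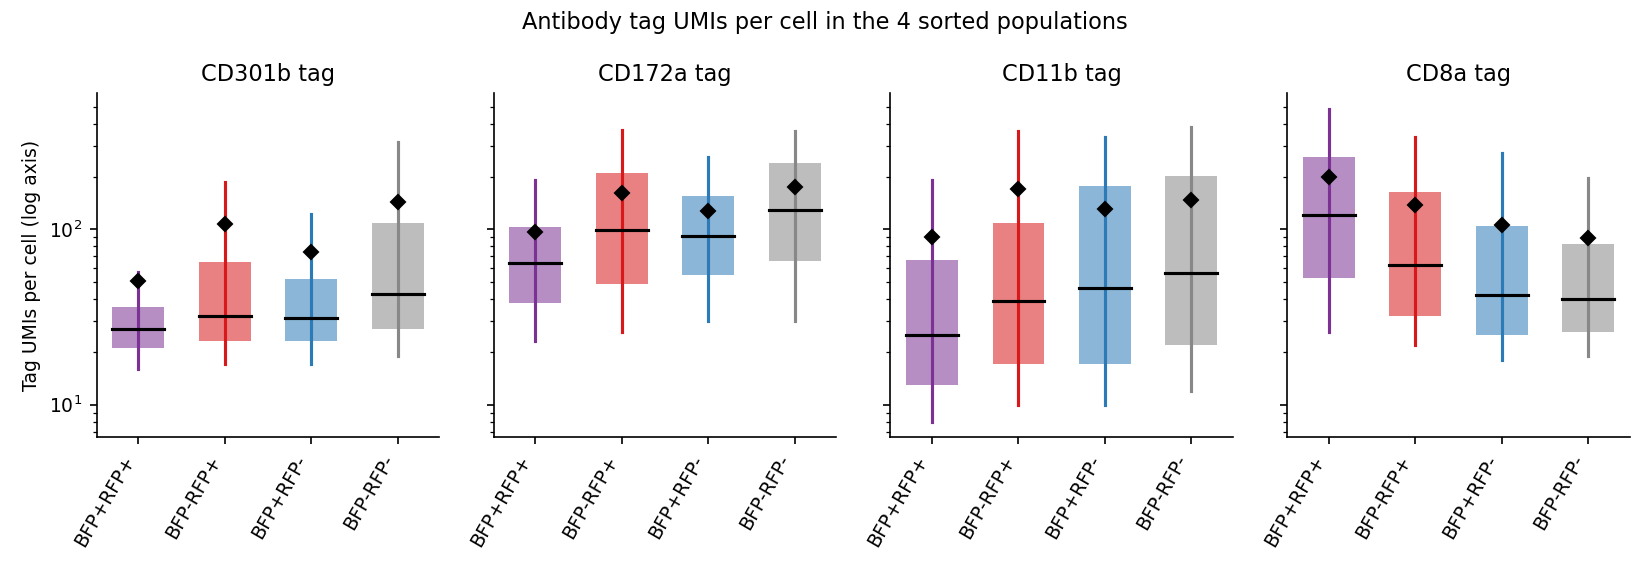
UMIs per cell of the 4 antibody tags in the 4 sorted populations, on a log axis. Boxes span the 25th to 75th percentile of cells, vertical lines the 10th to 90th, black bars are medians and diamonds means. BFP+RFP+ cells have the lowest CD301b, CD172a and CD11b means and the highest CD8a mean, 199 UMIs.

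The mRNA of these proteins was set beside their tags. Mgl2, which encodes CD301b, was at 12.8 CPM (11.0 to 14.8) in BFP+RFP+ and 44.0 (40.7 to 47.3) in BFP-RFP+ cells, a ratio of -1.78 (-2.02 to -1.54), though 5 cells held 34.7% of its UMIs. Sirpa, which encodes CD172a, was at 49.7 and 108 CPM, with a ratio of -1.12 (-1.25 to -0.99) and 6.03% of UMIs in the top 5 cells. Both differed in the direction of their tags. Itgam, which encodes CD11b, had 15 and 27 UMIs, too few to compare. Cd8a mRNA was not higher as its tag was, at 32.4 and 38.0 CPM, a ratio of -0.23 (-0.41 to -0.05) against 0.53 for the protein. Barcodes with at least 5 UMIs of the T and NK cell genes Cd3d, Cd3e, Cd3g, Trbc1, Trbc2 and Nkg7 made up 5.11% of BFP+RFP+ and 6.11% of BFP-RFP+ cells. Without these and the barcodes likewise marked as B cells or macrophages, the CD8a tag ratio was 0.61 and that of Cd8a mRNA -0.01. Cd8b1, the T cell partner chain, had 91 and 186 UMIs in all cells and 11 and 13 in those remaining.

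Of the 18 genes listed for CD301b- and CD11b-expressing type 2 dendritic cells, 14 had at least 100 UMIs, 10 of them were at least 2-fold lower in BFP+RFP+ cells and none was 2-fold higher, beside 2.21% lower over all genes. Their median was -1.40, against -0.09 over all genes. Clec10a, a C-type lectin close to Mgl2, stood at 4.32 and 17.0 CPM and had a ratio of -1.97 (-2.40 to -1.57). Cd209d, a DC-SIGN family lectin, stood at 4.67 and 30.4 CPM with a ratio of -2.69 (-3.10 to -2.33). These 2 lectins were the lowest members of the list. The inhibitory Fc receptor Fcgr2b was at 5.45 and 18.1 CPM (-1.73) and the lysozyme Lyz2 at 115.5 and 323 CPM (-1.48). Lyz2 was lower still within RFP- cells, at -2.24. The transcription factors of the list did not share this difference, with Irf4 at -0.12 and Klf4 at -0.11. Much of the list rested on few cells: the top 5 held 20.5% of the UMIs of Lyz2, 32.9% of Clec10a and 49.4% of Cd209d.

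Macrophage markers moved with this list. Over the 15 macrophage and monocyte markers the summed level was 177 CPM in BFP+RFP+ and 379 in BFP-RFP+ cells, and 7 of 10 markers with at least 100 UMIs were 2-fold lower, beside 2.21% over all genes, with a median of -1.48. The complement gene C1qa had 100 and 479 UMIs, and no marker of the list was at 0 in either population. Barcodes with at least 5 UMIs of C1qa, C1qb and C1qc numbered 4 of 841 (0.476%) and 15 of 982 (1.53%). Without barcodes of other cells, the macrophage median was -0.21 and that of the type 2 dendritic cell list -1.12. C1qa, C1qb and C1qc belong to the macrophage list, so part of the change in its median is built in. The B cell and the T and NK cell lists likewise hold the genes that marked their barcodes.

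Genes at least 2-fold higher in BFP+RFP+ cells that did not rest on a few cells were led by Myl7 and Plxna4. Myl7, the regulatory myosin light chain of the atrium, was at 80.1 CPM in BFP+RFP+ and 24.3 in BFP-RFP+ cells, a ratio of 1.72 (1.55 to 1.89). The top 5 cells held 14.1% of its UMIs. Plxna4, a plexin that receives semaphorin signals, was at 188.5 and 67.4 CPM, with a ratio of 1.48 (1.38 to 1.59) and only 6.63% of its UMIs in the top 5 cells. These genes are better known from muscle and nerve.

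The other genes with the largest positive ratios, of those with at most 20% of UMIs in 5 cells, were lower in level. Myh10, a heavy chain of non-muscle myosin II, was at 19.2 and 6.10 CPM (1.65, 1.31 to 2.00). The remaining 8, Egfl6, Smpdl3b, Zfp819, Acot1, Sgca, Spo11, Mill2 and Colq, lay between 1.22 and 1.71 and at 5.31 to 21.5 CPM in BFP+RFP+ cells. Acot1, which releases fatty acids from coenzyme A, had a ratio of 1.54 (1.03 to 2.09). These 8 rest on 75 to 304 UMIs in BFP+RFP+ and 30 to 103 in BFP-RFP+ cells, so their intervals are wide.

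The largest negative ratios under the same rule belonged to 2 genes of the apolipoprotein L family. Apol7c, expressed in activated dendritic cells, was at 78.3 CPM in BFP+RFP+ and 344 in BFP-RFP+ cells, a ratio of -2.14 (-2.23 to -2.04). Its 90th percentile was 0.686 UMIs per 10000 in BFP+RFP+ and 9.69 in BFP-RFP+ cells. Apol10b was at 2.05 and 9.40 CPM (-2.18, -2.82 to -1.61). Wdfy4, a protein needed for cross-presentation by type 1 dendritic cells, was at 24.3 and 83.3 CPM (-1.77, -1.95 to -1.60). Serpinb1a, an inhibitor of leukocyte serine proteases, was at 14.4 and 51.1 CPM (-1.83), and Cfp, which encodes the complement factor properdin, at 8.21 and 27.5 CPM (-1.74). The others were Plppr4, Pde5a, Ctxnd1, Denn2b, Mefv and Myrip, between -1.88 and -1.72, and the heat shock gene Hspa1a described below.

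A second ranking took genes with at least 1000 UMIs of which 5 cells held at most 5%, so that the difference was spread over many cells. The 10 highest lay between 0.68 and 1.02. H2-Oa, which encodes a chain of the peptide-loading regulator DO, was at 163.7 and 80.7 CPM (1.02, 0.92 to 1.12). Gria3, a glutamate receptor subunit, was at 223.5 and 115 CPM (0.96), and Ebi3, a subunit shared by interleukins of the IL-12 family, at 140.1 and 74.6 CPM (0.91). For each of these the median BFP+RFP+ cell held transcripts and the median BFP-RFP+ cell none. The tubulin Tubb2b (0.86), the receptor Il9r (0.82), the kinase scaffold Ksr1 (0.81), the prion protein Prnp (0.77), Tamalin (0.68), Capsl (0.68) and the RNA-binding Rbpms (0.68) followed.

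The 10 lowest of this ranking were led by Cd9, a tetraspanin of the cell surface, at 53.8 CPM in BFP+RFP+ and 160.7 in BFP-RFP+ cells (-1.58, -1.70 to -1.46). Cst3, which encodes the protease inhibitor cystatin C and is among the most abundant genes of dendritic cells, was at 3056 and 5679 CPM (-0.89, -0.91 to -0.88). Its median cell held 14.9 and 19.8 UMIs per 10000, and its 90th percentile 59.8 and 136.9. The gap in Cst3 was therefore wider among cells with much of it. Gpr137b, Slc41a2, Ppp3ca, Tbc1d9, Gusb, Pdlim4, Grk5 and Sulf2 lay between -0.92 and -0.77.

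**Figure D2:**
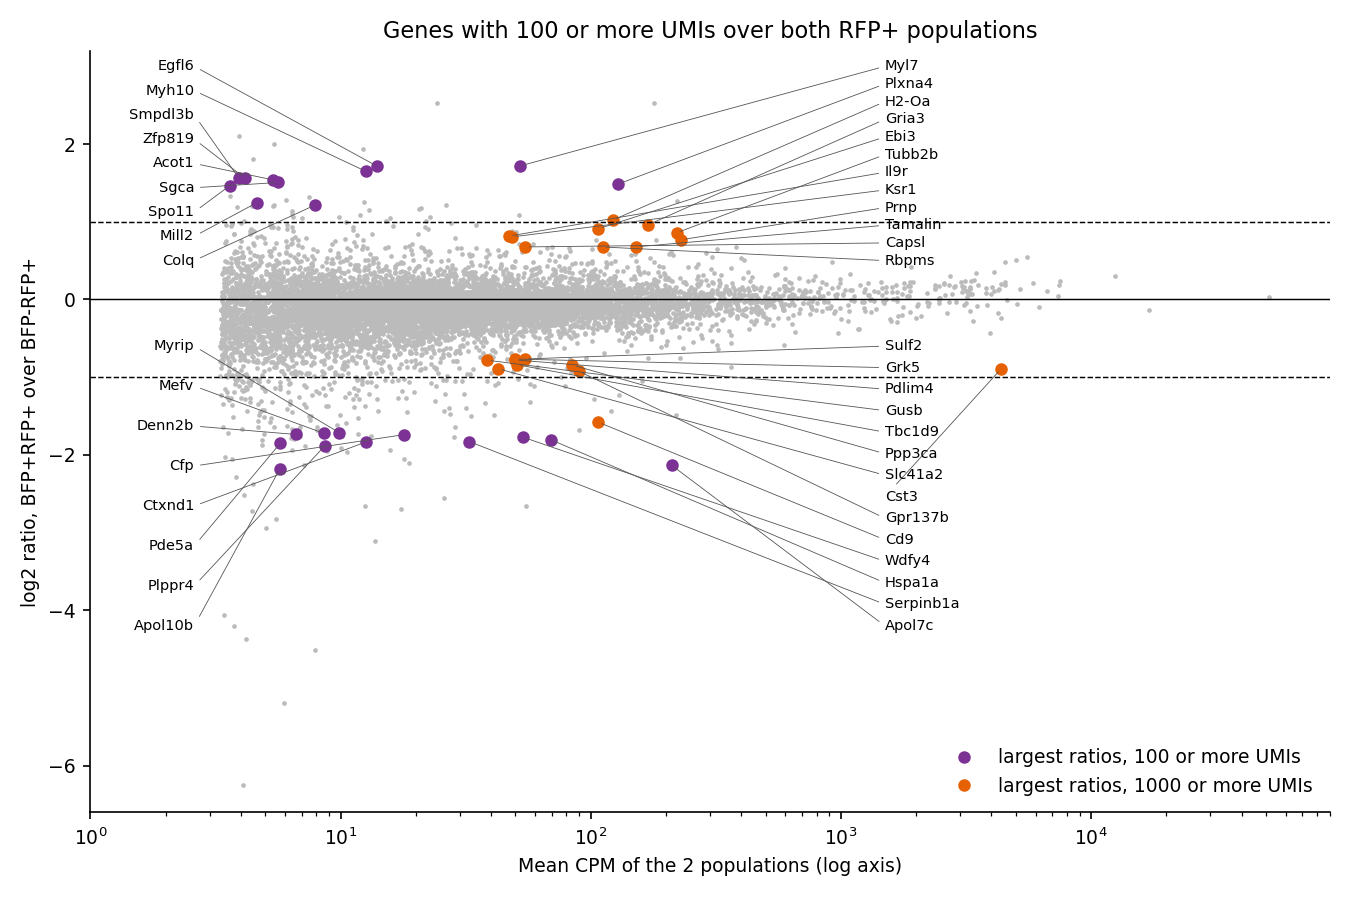
Mean level of both RFP+ populations on a log axis against the log2 ratio of BFP+RFP+ over BFP-RFP+, 1 point per gene with at least 100 UMIs. Coloured points are the named genes and dashed lines mark 2-fold. Among abundant genes Cst3 stands apart at -0.89, and Tnfsf4 and BFP are the pair of grey points at 2.53.

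Most genes that load or form MHC class II had higher levels in BFP+RFP+ cells. All 13 had at least 100 UMIs, 10 lay above the median of all genes and 3 below, 1 was 2-fold higher beside 0.476% over all genes, and their median was 0.30. The class II chain gene H2-Aa was at 6567 CPM in BFP+RFP+ and 4492 in BFP-RFP+ cells (0.55, 0.53 to 0.56), H2-Eb1 at 5257 and 3773 (0.48) and the invariant chain Cd74 at 13770 and 11160 (0.30). The exchange factor genes H2-DMa and H2-DMb2 were at 0.64 and 0.60. The class II transactivator Ciita, which switches on these genes, was at 152 and 118 CPM (0.36, 0.27 to 0.45). The enzymes of the same pathway did not share the direction: Ctss, a protease of the invariant chain, was at -0.18 (-0.23 to -0.13) and Ifi30, a lysosomal thiol reductase, at -0.38 (-0.41 to -0.35). B cells also express class II genes, and their markers summed to 199 and 136 CPM. Without barcodes of other cells the class II median was 0.36 and the ratio of H2-Oa 1.04.

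Costimulatory and coinhibitory ligands split. Of 20 listed, 15 had at least 100 UMIs, 1 was 2-fold higher and 3 lower, beside 0.476% and 2.21% over all genes, and the median was -0.01. The 2-fold higher gene had 51.1% of its UMIs in 5 cells, and 1 of the 3 lower genes had 23.5%. Among the listed ligands, Cd80 was at 867 and 704 CPM (0.30, 0.26 to 0.34) and Cd200 at 310.4 and 226 CPM (0.46). The TNF family ligands Cd70 (0.66, 0.47 to 0.86) and Tnfsf9, the 4-1BB ligand (0.47, 0.37 to 0.58), were also higher. Against these, Slamf1, a self-ligand of T cells and dendritic cells, was at 36.6 and 77.7 CPM (-1.09, -1.24 to -0.94) and the poliovirus receptor Pvr at 19.9 and 41.3 CPM (-1.06, -1.26 to -0.85). Pdcd1lg2, which encodes PD-L2, was at 47.6 and 77.7 CPM (-0.71) and Cd40 at 187 and 262 CPM (-0.48). The most abundant member, Cd86, differed little, at 1458 and 1367 CPM (0.09).

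Cytokine genes also went both ways. Of 18, 9 had at least 100 UMIs, 1 was 2-fold higher and 2 lower, beside 0.476% and 2.21% over all genes, with a median of -0.11. Il6 was at 29.2 and 12.9 CPM (1.18, 0.94 to 1.43). The inflammasome-processed cytokines were lower, Il1b at 78.0 and 182.5 CPM (-1.23, -1.33 to -1.13) and Il18 at 15.2 and 33.0 CPM (-1.11, -1.35 to -0.88). For Il1b 5 cells held 15.6% of UMIs, and among cells low for the CD11b, CD172a and CD301b tags its ratio was 0.20. Il12b, the p40 subunit of IL-12 and IL-23, was at 64.1 and 41.9 CPM (0.62, 0.47 to 0.76), with 17.4% of UMIs in 5 cells. Of the chemokines, Ccl17, a ligand of CCR4, was at 256 and 468 CPM (-0.87, -0.93 to -0.81), whereas Ccl22, the other CCR4 ligand, was level at 1892 and 1841 CPM (0.04). The list of 16 chemokines had 12 members with at least 100 UMIs and a median of 0.06.

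Among 20 cytokine receptor genes, 19 had at least 100 UMIs, 1 was 2-fold higher and 2 lower, beside the same 0.476% and 2.21%, and the median was -0.04. The interleukin-1 receptor Il1r1 was at 30.8 and 14.8 CPM (1.06, 0.82 to 1.29) and the IL-2 receptor alpha chain Il2ra at 179.6 and 120 CPM (0.58, 0.50 to 0.67). The interleukin-6 receptor Il6ra went the other way, at 8.14 and 19.9 CPM (-1.29, -1.61 to -0.98). Both chains of the TSLP receptor were detected in both populations. Il7r was at 348 and 275 CPM (0.34, 0.28 to 0.40) and Crlf2 at 20.5 and 21.0 CPM (-0.04, -0.27 to 0.19). In the list of TSLP and STAT5 response genes, which holds Tnfsf4, 15 of 16 had at least 100 UMIs and the median was 0.09. None but Tnfsf4 differed 2-fold, beside the same shares over all genes. Its members Socs1 (0.36) and Socs2 (0.23) were higher and Cish (-0.38) and Stat5a (-0.36) lower.

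Transcription factors of dendritic cells stayed within 2-fold, as most genes did, with 0.476% higher and 2.21% lower over all genes. All but 1 of 26 had at least 100 UMIs, 10 lay above and 15 below the median of all genes, and the median was -0.12. Of factors of the plasmacytoid lineage, Tcf4 was at 604 and 483 CPM (0.32, 0.28 to 0.37) and Runx2 at 413 and 312 CPM (0.40, 0.35 to 0.46). Irf8 (-0.47, -0.59 to -0.36) and Zeb2 (-0.40, -0.46 to -0.34) were lower. The plasmacytoid lineage list as a whole had 13 of 20 genes with at least 100 UMIs, none 2-fold higher and 1 lower, beside 2.21% over all genes, and a median of -0.23, so its members did not move as 1 group. In the transitional dendritic cell list, 10 of 13 genes had at least 100 UMIs and the median was -0.31, with the filament gene Vim higher (0.51) and Cd81 (-0.81) and Crip1 (-0.43) lower. The NF-kB and survival list, with 18 of 18 genes at 100 or more UMIs, had a median of -0.02. It had no 2-fold member, beside the same shares over all genes. The migratory dendritic cell list, also 18 of 18, had a median of -0.08 and Apol7c as its only 2-fold member, beside the same shares.

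**Figure D3:**
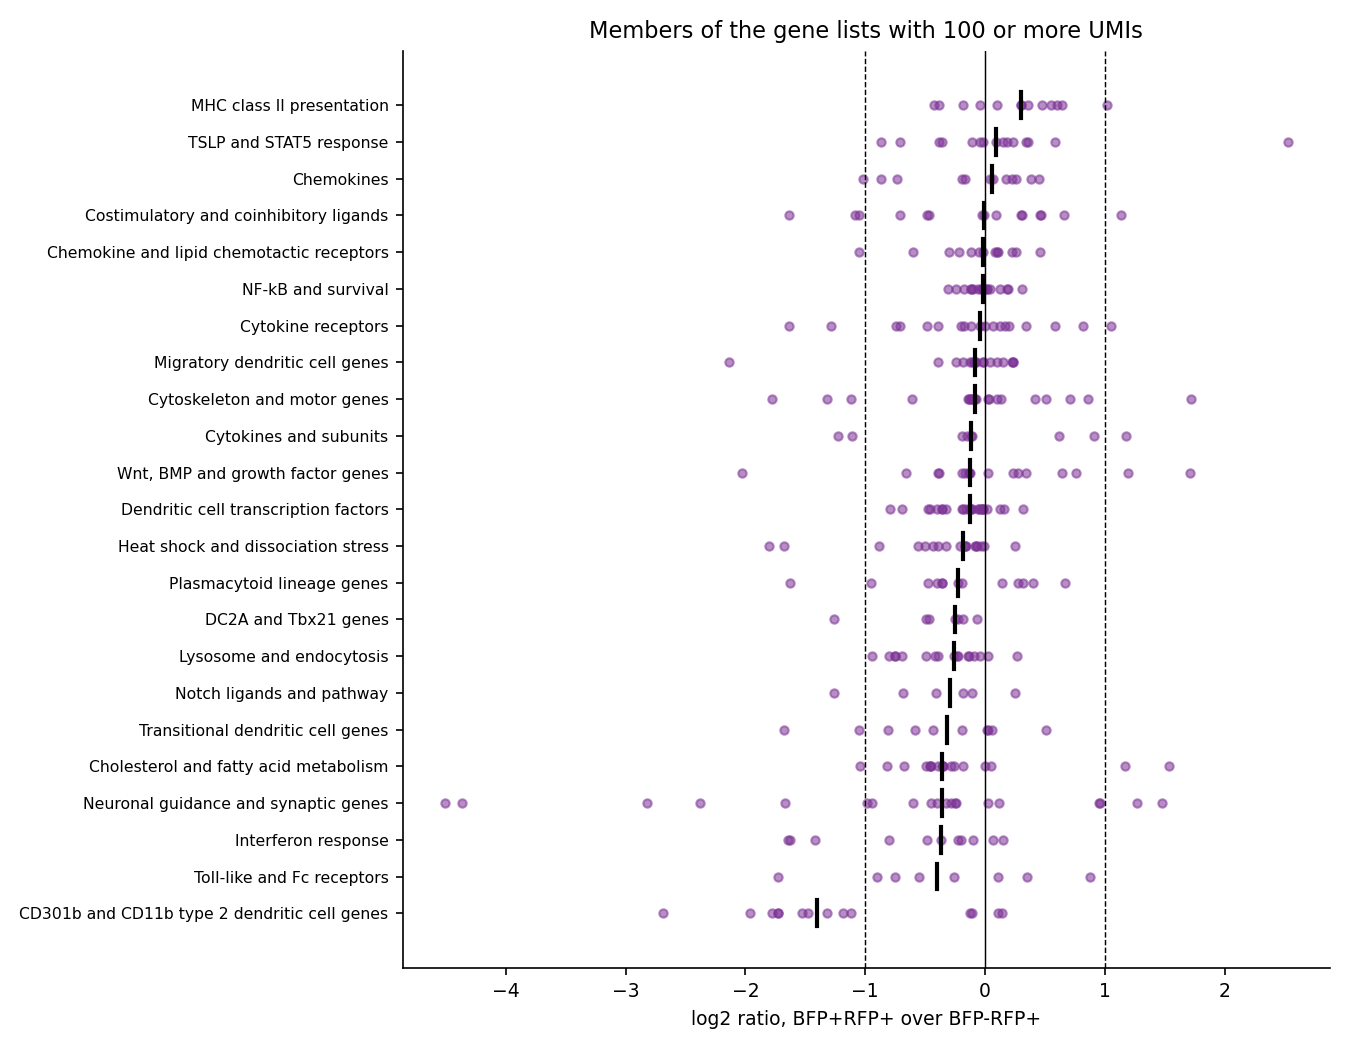
Log2 ratio of BFP+RFP+ over BFP-RFP+ for the members of the 23 gene lists that had at least 100 UMIs. Each point is a gene, thick bars are list medians and dashed lines mark 2-fold. The list of CD301b and CD11b type 2 dendritic cells lies lowest, at a median of -1.40, and MHC class II presentation highest, at 0.30.

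Most genes of the stress, lipid and interferon lists were lower in BFP+RFP+ cells. Of 18 heat shock and dissociation stress genes, all with at least 100 UMIs, 12 lay below the median of all genes. Their median was -0.19, against -0.09 over all genes, and -0.18 within RFP-. Of these genes 2 were 2-fold lower, beside 2.21% over all genes. These 2 were the inducible HSP70 genes, Hspa1a at 30.8 and 107.5 CPM (-1.80, -1.96 to -1.65) and Hspa1b at 42.9 and 137 CPM (-1.68, -1.81 to -1.55). The constitutive Hspa8 was level at 1499 and 1504 CPM. Of 20 cholesterol and fatty acid genes, 18 had at least 100 UMIs, 14 lay below the median of all genes, and the list median was -0.36, with 2 genes 2-fold higher and 1 lower, beside 0.476% and 2.21%. Of sterol synthesis and its control, Hmgcs1 was at -0.36 and Insig1 at -0.45, whereas Fdft1 was level at 33.3 and 33.4 CPM. The lipid carrier Apoe, also a macrophage marker, was at -1.04. Against them Mgll, which breaks down monoacylglycerol, was at 28.4 and 12.6 CPM (1.17, 0.92 to 1.42). Of 22 interferon response genes 11 had at least 100 UMIs, 3 were 2-fold lower, beside 2.21% over all genes, and the median was -0.37. Isg15 was at 13.9 and 43.5 CPM (-1.65), with 26.9% of its UMIs in 5 cells. The 19 lysosome genes, 17 with at least 100 UMIs, had a median of -0.26 and none differed 2-fold, beside 0.476% and 2.21%.

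Neuronal and growth factor genes went both ways. Of 28 neuronal guidance and synaptic genes, 20 had at least 100 UMIs, 2 were 2-fold higher, Plxna4 among them, and 5 lower, beside 0.476% and 2.21% over all genes, with a median of -0.36. Nrgn, a postsynaptic calmodulin-binding protein, was at 46.0 and 23.8 CPM (0.95, 0.77 to 1.14). The adhesion gene Ncam1 was at 0.637 and 15.2 CPM, but 79.1% of its UMIs came from 5 cells. Most of the other lower genes of this list likewise had 58.7% to 74.6% of their UMIs in 5 cells. In the Wnt, BMP and growth factor list, 17 of 22 genes had at least 100 UMIs and the median was -0.12. The Wnt modulator Dkk2 was at 229.4 and 135 CPM (0.76, 0.68 to 0.84) and the ligand Wnt3 at 6.15 and 2.67 CPM (1.20).

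The remaining lists had few 2-fold genes. Of 22 cytoskeleton genes 21 had at least 100 UMIs, 1 was 2-fold higher and 3 lower, beside 0.476% and 2.21%, and the median was -0.08; the lower ones were Wdfy4, the calcium-binding Aif1 (-1.32) and the linker Dst (-1.12). The list of 19 chemotactic receptors, 13 with at least 100 UMIs, had a median of -0.01. Notch genes (6 of 14 with at least 100 UMIs) had a median of -0.29, DC2A and Tbx21 genes (7 of 11) one of -0.25, and Toll-like and Fc receptors (8 of 20) one of -0.40. Among marker lists, medians were 0.74 for B cells (-0.36 without barcodes of other cells), 0.14 for plasmacytoid dendritic cells, -0.44 for type 1 dendritic cells, -1.15 for Langerhans cells (3 genes), -0.70 for granulocytes and mast cells (1 gene), 0.10 for innate lymphoid cells, -0.16 for stroma and epithelium (2 genes), 0.02 for migratory dendritic cells and -0.40 for proliferation.

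Since the CD11b, CD172a and CD301b tags differed between the populations, the ratios were taken again in groups of cells split at the tag medians. This split was added after the values had been seen, and tag levels were not matched within a group. Cells at or below the median of RFP+ cells in all 3 tags were 256 BFP+RFP+ (30.4%) and 179 BFP-RFP+ cells (18.2%), and cells above it in at least 2 tags were 317 (37.7%) and 559 (56.9%). In the first group 41 of the 45 higher genes kept their direction, 20 of them at 2-fold, and 183 of the 209 lower genes, 120 at 2-fold. In the second group it was 43 and 36 of 45, and 207 and 146 of 209. Both groups are part of the cells in which these genes were called, so a kept direction is partly built in. Apol7c was lower in both, at -4.07 in cells with low tags and -1.44 in cells with high tags. Plxna4 was higher in both, at 1.35 and 1.02, and Myh10 at 1.61 and 1.81. The list of type 2 dendritic cell genes had a median of -0.25 in cells with low tags and -0.94 in cells with high tags, with Lyz2 at 1.08 and -1.14. Other named genes that turned direction in cells with low tags included Il1b (0.20), Cd81 (0.43), Insig1 (0.19), Zeb2 (0.11), Fcgr2b (0.09) and Poc1b (-0.18). Irf4 (0.555), Klf4 (0.235), Fscn1 (0.215), Stat5a (0.060) and Cd40 (0.017) turned as well. The class II list had medians of 0.37 and 0.28.

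**Figure D4:**
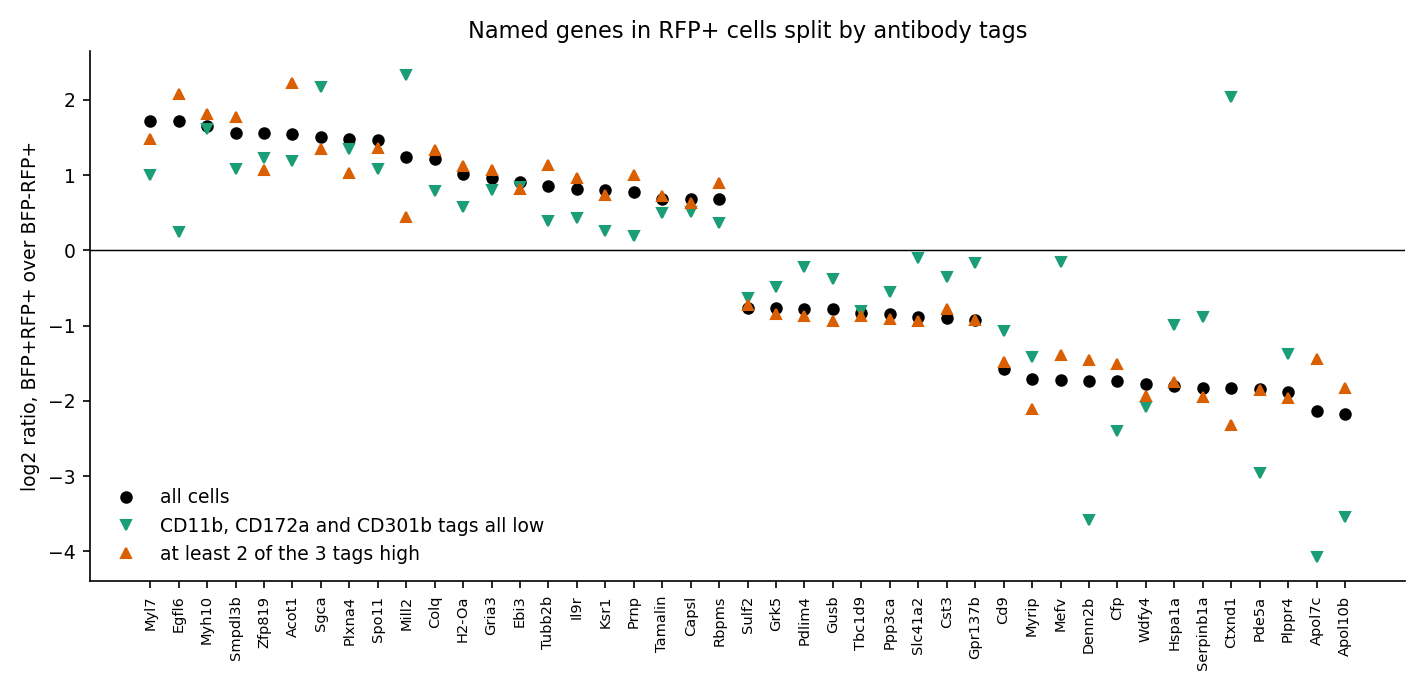
Log2 ratio of BFP+RFP+ over BFP-RFP+ for the genes of the 2 rankings by size of ratio in all cells, in cells low for the CD11b, CD172a and CD301b tags, and in cells high for at least 2 of them. Ctxnd1 is the gene plotted here that changes sign, at 2.04 in cells with low tags from 25 UMIs.

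Whether these differences belonged to cells with a Siglech history was read from the same ratio in RFP- cells, taken between their BFP+ and BFP- cells, which share no cells with the RFP+ pair. There 58 of 10236 genes (0.567%) were at least 2-fold higher and 133 (1.3%) at least 2-fold lower. All 45 genes that were 2-fold higher within RFP+ were above 0 within RFP-, 17 of them at 2-fold, with a median of 0.85. Among these 17 are Tnfsf4 (2.36), BFP (2.82) and SV40PolyA (1.70), which check the sort on BFP and are not findings. Of the 209 lower genes, 195 were below 0, 73 at 2-fold, with a median of -0.73. Most differences were therefore shared in direction and smaller in RFP- cells. As the genes were chosen for a large ratio within RFP+, a smaller ratio in the other pair is partly built in. Of 9432 genes with at least 100 UMIs in each pair, 32 (0.339%) had a ratio higher by at least 1 within RFP+ and 92 (0.975%) lower by at least 1. Without the 5 cells of each population with the most UMIs of a gene these counts were 5 and 155. Each cell given the same weight made the higher count 49, and leaving out barcodes of other cells made the lower count 57. No difference between the RFP states could be tested, with 1 sample in each population.

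Most of the 2-fold genes whose ratio was larger in size by at least 1 within RFP+ were lower ones. Of 191 genes that were 2-fold lower within RFP+ and measured in both pairs, 41 were lower than within RFP- by at least 1, beside 0.975% over all genes. The 191 were chosen for a low ratio within RFP+, which also enters the difference, so this is partly built in. All 41 had an interval without 0, of counting error only, and 12 of these had at most 20% of UMIs in 5 cells of either pair. They were Abcd2, Apol10b, Apol7c, Bcam, Cd9, Ctxnd1, Gcfc2, Gpr4, Impdh1, Mllt3, Myrip and Trf. Apol7c was at 409 and 617 CPM in BFP+ and BFP- cells without RFP, a ratio of -0.59 (-0.63 to -0.55), so the 2 ratios differed by -1.54 (-1.65 to -1.44). BFP+RFP+ cells, at 78.3 CPM, were thus the lowest of the 4 populations. Cd9 was at 128 and 187 CPM without RFP (-0.54, -0.61 to -0.47), a difference of -1.04 (-1.17 to -0.90). Impdh1, an enzyme of guanine nucleotide synthesis, was at -1.56 (-2.03 to -1.12) with RFP and 0.04 (-0.32 to 0.41) without. Cst3 was at -0.89 with RFP and -0.19 without, and Ccl17 at -0.87 and -0.15. By ratios of means the CD11b tag behaved likewise, at -0.92 with RFP and -0.17 without. The CD172a tag was at -0.74 and -0.45, and the CD8a tag, higher in BFP+ cells, at 0.53 and 0.26. The CD301b ratio of means was close in both, -1.08 and -0.94. Its medians in BFP+ and BFP- cells were 27 and 32 UMIs with RFP, and further apart without, at 31 and 43.

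Of 41 higher genes measured in both pairs, 4 were higher within RFP+ by at least 1, beside 0.339% over all genes. This too is partly built in by the choice of genes. The 3 not resting on few cells were Fam171a1, Smpdl3b and Zfp819. Zfp819, a zinc finger gene, was at 6.23 and 2.10 CPM with RFP (1.56, 0.98 to 2.20) and 2.39 and 2.35 CPM without (0.01, -0.56 to 0.63). Plxna4 was higher in both, by 1.48 with RFP and 0.85 (0.74 to 0.97) without, a difference of 0.63 (0.48 to 0.79). Ksr1, the kinase scaffold, was at 0.81 with RFP and 0.13 (-0.03 to 0.28) without. By the rule for differences, the genes most raised within RFP+ were Zdhhc14, Nol4l, Kif3a, Cdk5r1, Slc39a14, Cog1, Fancd2, D3Ertd751e, Myh10 and Poc1b, by 0.74 to 1.04. Cdk5r1, the activator of the neuronal kinase CDK5, was at 36.7 and 18.6 CPM with RFP (0.98) and at 0.14 (-0.07 to 0.36) without. The genes most lowered besides Impdh1, Ctxnd1 and Cd9 were Utp4, Slc44a5, Ttc39b, Aen, Phb, Oaf and Klhdc1, by -1.04 to -0.85.

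The class II list was close in both RFP states, with medians of 0.30 with RFP and 0.38 without. The type 2 dendritic cell list was at -1.40 and -0.93. Markers of T and NK cells differed in direction, with a median of -0.63 in 11 genes within RFP+ and 0.45 in 12 genes within RFP-, and summed levels of 167 and 248 CPM with RFP and 239 and 175 CPM without, BFP+ before BFP-. Without barcodes of other cells, partly marked by genes of this same list, the median within RFP+ was 0.33. The part of such barcodes in each gene's ratio was not tested. Without these barcodes 40 of the 45 higher genes and 167 of the 209 lower genes stayed 2-fold. That reading kept 92.63% of BFP+RFP+ and 91.45% of BFP-RFP+ cells, so most genes staying 2-fold is partly built in.

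**Figure D5:**
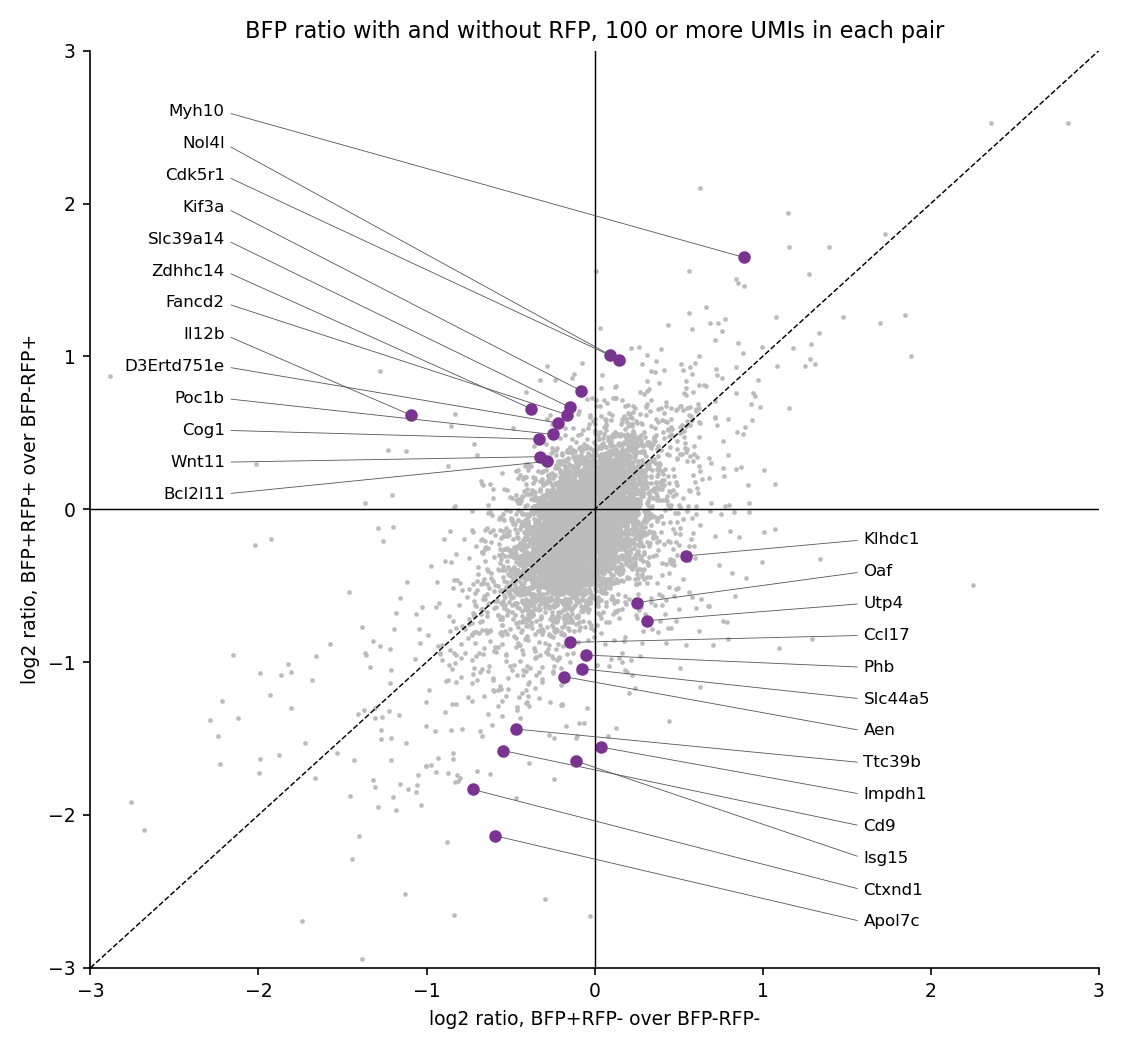
Log2 ratio of BFP+ over BFP- cells without RFP (horizontal) and with RFP (vertical), 1 point per gene with at least 100 UMIs in each pair. Points on the dashed line have equal ratios, and 6 of 9432 genes lie outside the axes. Il12b is higher in BFP+ cells with RFP, at 0.62, and lower without, at -1.09, and Apol7c, Cd9 and Impdh1 lie far below the line.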

How the data were processed

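CITE-seq measured mRNA, 4 antibody tags and 4 hashtags in 1 capture. The authors deposited raw UMI counts for 22548 genes in 6079 barcodes from a matrix that the file headers credit to Cell Ranger 7.0.0. The submitters' processing notes name GRCm39 (mm39). How barcodes were called as cells is not given in the sources used here. Coordinates are not printed, and 22404 gene IDs were in the table of mouse gene names.

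Hashtags were called at 80% of hashtag UMIs, leaving 5380 of 6079 barcodes before filters. Counts were summed per population (Python 3.11.15, numpy 2.4.6, scipy 1.17.1), with ratios on a pseudocount of 0.5 UMI, Poisson intervals for levels, conditional binomial intervals for ratios and combined intervals for differences of ratios. A gene was called at 2-fold among those with at least 100 UMIs. The summation and interval step was tested on simulated data. No doublet caller was run, so doublets within 1 population were kept. An alternative dropped the 5% of cells with the most UMIs.

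Named genes were the 12 per direction with the largest ratio (100 or more UMIs, at most 20% in 5 cells), the 10 per direction with 1000 or more UMIs and at most 5%, and the 10 per direction with the largest difference between RFP states (200 or more UMIs in each pair, at most 10%). Reporters, Tnfsf4, gene models without a symbol, mitochondrial, ribosomal, antigen receptor and MHC class I genes were left out, and members of 23 response lists and 11 marker lists may be named. A few genes that the rule or the lists name are not reported here. Abcd2, Bcam, Fam171a1, Gcfc2, Gpr4, Mllt3 and Trf fall outside the rule and were chosen after their values were seen. The cells, lists and rules were chosen with earlier results of these data known. Alternatives varied the hashtag limit, filters, scaling (edgeR 4.0.16, DESeq2 1.42.0, used only for scaling factors), weighting, pseudocount and UMI minimum.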

Additional observations from a re-analysis of the deposited data

Results flagged for a closer look

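The search for opposite directions took the named genes, and the response list members with at least 200 UMIs in each pair and at most 20% in 5 cells. It listed those with ratios of BFP+ over BFP- on opposite sides of 0 in the RFP states, with neither interval holding 0. The list members and a minimum difference of 0.5 were added after the values had been seen. Of 295 genes looked at, 23 met the search without that minimum and 6 with it. With 1 sample per population, none of these differences was tested.

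Il12b showed the widest reversal. It was at 64.1 and 41.9 CPM in BFP+RFP+ and BFP-RFP+ cells and at 41.2 and 87.7 CPM in BFP+RFP- and BFP-RFP- cells, ratios of 0.62 and -1.09 that differ by 1.71 (1.52 to 1.89). Without the 5 cells of each population with the most Il12b the ratios were 0.62 and -0.73. Zdhhc14, a palmitoyltransferase gene, was at 0.66 with RFP and -0.38 without, a difference of 1.04. Cog1, of the Golgi, differed by 0.79 (0.46 against -0.33) and the Wnt ligand Wnt11 by 0.67 (0.34 against -0.32). Bcl2l11, which encodes the death-promoting BIM, differed by 0.60 (0.31 against -0.28), though its ratio in RFP+ cells with low tags was -0.32. Bcl11a, a transcription factor of lymphoid and plasmacytoid lineages, differed by -0.58 (-0.36 against 0.23). In RFP+ cells with low tags its ratio was 0.08, and with each cell given the same weight it was -0.08, so its direction there was not kept or lay near 0.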

How the results depend on the processing

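No paired analysis was possible because there is 1 sample per population, and no replicate can be left out for the same reason. The minimum of UMIs moved every count: genes 2-fold higher in BFP+RFP+ cells numbered 1083, 91 and 6 with at least 1, 30 and 1000 UMIs, against 45 with 100, and genes 2-fold lower 2084, 468 and 24, against 209. Genes higher by at least 1 within RFP+ than within RFP- numbered 124 and 3 with at least 30 and 1000 UMIs, against 32, and lower ones 281 and 4, against 92. Among cells with low CD11b, CD172a and CD301b tags, fewer in number by construction, 19 genes were 2-fold higher and 125 lower. For the difference between RFP states, equal weight of cells gave 49 higher genes, and leaving out barcodes with markers of other cells gave 57 lower ones. Leaving out the 5 cells of each population with the most UMIs of a gene gave 5 higher and 155 lower; it takes the same number of cells from populations of 841 to 2184 cells. The other settings kept the counts between 41 and 66 higher, 162 and 213 lower, 25 and 37 higher in the difference and 65 and 122 lower.

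All 4 tag ratios kept their direction. With 95% of hashtag UMIs they were -1.23 (CD301b), -0.91 (CD172a), -1.12 (CD11b) and 0.51 (CD8a), in the same order -1.05, -0.71, -0.88 and 0.55 without filters, and -1.06, -0.79, -0.88 and 0.56 without the 5% of cells with the most UMIs. Without barcodes of other cells CD301b was at -1.10, CD11b at -0.75 and CD8a at 0.61. As a share of the 4 tags the ratios were -0.68, -0.34, -0.52 and 0.93, and of medians -0.25, -0.63, -0.64 and 0.94. Ctxnd1 was reversed in cells with low tags, at 2.04 from 25 UMIs; the cause was not tested. Of the other named-gene values, 1103 moved little and 296 moved more without changing sign among called genes, and of list medians 413 and 24.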
